A study of Mus musculus with 22 samples.

Results

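Islet tumours were compared with hyperplastic islets in RIP1-TAG2 (RT2) mice, with 5 arrays labelled as islet tumour set against 3 labelled as hyperplastic islet, 8 of the 22 arrays of the series. Every gene with a usable probe set was compared, 19938 genes in all. In RT2 mice a viral tumour antigen is placed under the rat insulin promoter, so the transgene acts in beta cells of the pancreas and the other islet cells are its bystanders. All 22 samples carry this genotype, both compared groups and the normal islets included, and no treatment or age is given in the sources used here. Each sample was hybridised to 1 Affymetrix Mouse Gene ST array, and values are log2 intensities, on which a difference of 1 is a 2-fold change. Neither separate animals nor pooled animals are stated for any sample, so p-values measure the spread between these arrays. In bulk tissue, fewer cells of a type and less RNA per cell cannot be told apart.

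The viral antigen inactivates the retinoblastoma and p53 proteins, and beta cells that express it enter the cell cycle while the islet is still small. Hyperplastic islets are enlarged, proliferating islets without a changed vasculature, and a small share of islets go on to solid, vascularised tumours. Both classes therefore proliferate, and the comparison addresses what else separates a tumour from an overgrown islet. A normal islet holds beta cells together with alpha cells (glucagon), delta cells (somatostatin) and PP cells (pancreatic polypeptide), and it is supplied by capillaries and patrolled by resident macrophages.

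The islet origin of the samples was visible on all 8 arrays. Ins2, which encodes insulin, lay between 11.02 and 11.14 in hyperplastic islets and between 10.93 and 11.06 in tumours. Array medians over all 22 arrays ran from 7.08 to 7.22, and no pair of arrays correlated above 0.9931 across probe sets. The X-inactivation RNA Xist read 11.07, 10.88 and 10.67 in hyperplastic islets and 5.94, 5.81, 5.74, 5.97 and 6.46 in tumours. Its difference, a fall of 29.6-fold, exceeded that of every other named gene (-4.89 ± 0.18 log2, standard error; limma, adjusted p = 4.04e-13). The Y-linked gene Eif2s3y read 7.69, 7.05 and 8.45 in hyperplastic islets against 9.6, 9.56, 9.37, 7.77 and 9.6 in tumours, with tumour 4 among the hyperplastic values (adjusted p = 0.183). Xist was thus low on tumour 4 together with its Y-linked genes. Xist also averaged 11.14 ± 0.32 in normal islets and 10.91 ± 0.04 in angiogenic islets (SD, n = 3 each). The metastasis-like primaries averaged 5.58 ± 0.39 (n = 5), and the liver metastasis arrays 5.76 ± 0.05 (n = 3). Every islet class thus read high for Xist and every tumour class low. Among 8 measured sex chromosome genes the other called member was Kdm6a (-0.4 ± 0.08, adjusted p = 0.00407), a fall lost without hyperplastic 1. The labels give no sex of the animals, and the part of sex in the other differences was not tested.

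The limma fit, with Benjamini-Hochberg adjustment over all genes, called 1388 genes at an adjusted p below 0.05, which is 6.96% of those tested. Of these, 544 (2.73% of all genes) were higher and 844 (4.23%) were lower in tumours. At least 1 log2 separated the groups for 176 called genes, 38 higher and 138 lower, so large changes were mostly falls. The 5 tumours lay entirely above or below the 3 hyperplastic islets for 13.8% of all genes (6.86% above, 6.99% below), and for 1222 of the 1388 called genes. The count fell to 577 without hyperplastic 1 and to 685 without hyperplastic 2. Leaving out hyperplastic 3 gave 958, and leaving out a tumour gave 1181 to 1548.

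Of 47 gene lists, 38 held at least 1 called member. Since 6.96% of all genes were called, many lists of this size would hold 1 whatever their genes. The count is therefore no result about the lists. Immediate-early and heat shock genes had the highest share of members lower in tumours (18 of 27), followed by B lymphocyte markers (8 of 14) and the other islet endocrine cells (4 of 10). Macrophage markers had the highest share of members higher in tumours (10 of 18), followed by proteases and their inhibitors (6 of 18). The median difference over all genes was 0, so the list medians given below can be read directly against it.

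**Figure D1:**
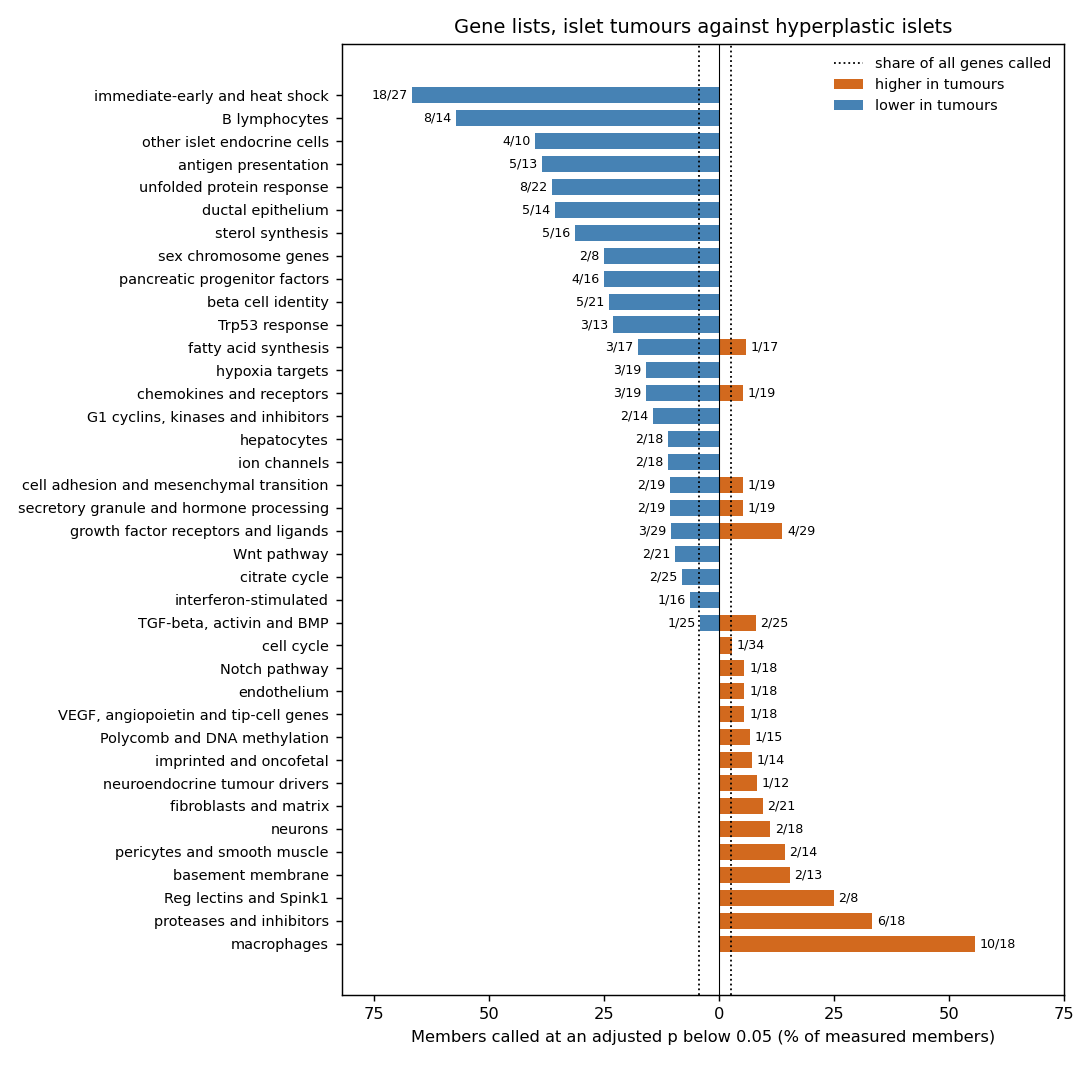
Share of each list's measured members called higher (right) or lower (left) in the 5 islet tumours than in the 3 hyperplastic islets, for the 38 lists with a called member; the fractions give called over measured members, and dotted lines mark the shares of all genes, 2.73% higher and 4.23% lower. Immediate-early and heat shock genes reach 18 of 27 on the left and macrophage markers 10 of 18 on the right.

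Sst, Pyy, Gcg and Ppy, hormone genes of islet cells other than beta cells, fell in tumours. They were the only called members of this list, 4 of 10 measured (40% against 4.23% of all genes), and its median was -0.54. Sst, the somatostatin gene of delta cells, read 12.58, 12.54 and 12.42 in hyperplastic islets and 7.68, 7.72, 7.87, 8.22 and 8.97 in tumours. Even the highest tumour lay far below the lowest hyperplastic islet, and Sst fell 21.5-fold (-4.43 ± 0.22 log2, adjusted p = 2.08e-11). Pyy, which encodes peptide YY, read 12.84, 12.67 and 12.56 against 8.25, 8.57, 8.49, 8.11 and 9.53. It fell by 4.1 ± 0.24 log2 (adjusted p = 2.95e-10), and tumour 5 held the highest value of both Sst and Pyy among the tumours.

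Gcg, the glucagon gene of alpha cells, was nearly constant in hyperplastic islets (13.11, 13.13 and 13.15) and spread widely in tumours (10.11, 8.3, 9.29, 11.03 and 10.9). The groups did not overlap, and Gcg fell by 3.21 ± 0.45 log2 (adjusted p = 0.000128). Ppy, the pancreatic polypeptide gene, read 12.87, 12.87 and 12.71 in hyperplastic islets and 8.97, 10.46, 12.27, 8.33 and 9.96 in tumours. Tumour 3 came close to the hyperplastic islets while tumour 4 was low, and the gene fell by 2.82 ± 0.51 log2 (adjusted p = 0.00161). The order of the tumours therefore differed from hormone to hormone: tumour 5 was highest for Sst and Pyy, tumour 4 for Gcg and tumour 3 for Ppy. The 4 hormone calls were kept under each of the alternative analyses. The remaining members did not pass the test, among them ghrelin (Ghrl, -0.26 ± 0.1, adjusted p = 0.129) and the alpha cell factor Irx2 (-0.18 ± 0.15, adjusted p = 0.577).

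**Figure D2:**
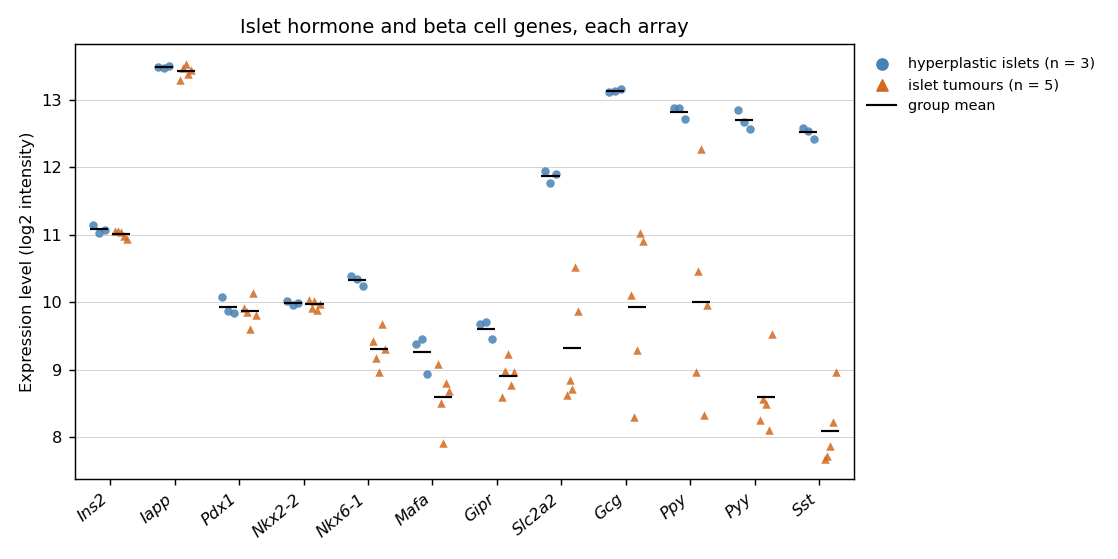
Level (log2 intensity) of islet hormone and beta cell genes on each array, with circles for the 3 hyperplastic islets, triangles for the 5 islet tumours and bars for group means. Ins2, Iapp, Pdx1 and Nkx2-2 overlap between the groups, while Sst, Pyy, Gcg, Ppy, Slc2a2, Nkx6-1 and Gipr lie lower on all 5 tumour arrays.

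Most beta cell genes lay below zero, and a few of them passed the test. Of 21 measured members, 5 fell and 0 rose, 23.8% against 4.23% of all genes, and the list median was -0.34. Below zero lay 20 members and above it 1. For 8 members all tumours lay below all hyperplastic islets, as they did for 6.99% of all genes. Insulin itself did not pass the test: Ins2 differed by -0.07 ± 0.1 (adjusted p = 0.794). Iapp, which encodes the amyloid polypeptide released with insulin, read 13.48, 13.46 and 13.49 against 13.29, 13.46, 13.53, 13.38 and 13.44 (adjusted p = 0.892). The identity factors Pdx1 (-0.07 ± 0.16), Nkx2-2 (-0.03 ± 0.1), Isl1 (-0.09 ± 0.12) and Pax6 (-0.05 ± 0.14) also overlapped between the groups, with adjusted p of 0.781 to 0.936.

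Slc2a2, which encodes the glucose transporter GLUT2 of rodent beta cells, read 11.94, 11.77 and 11.9 in hyperplastic islets and 8.63, 8.85, 8.71, 10.52 and 9.87 in tumours. Tumours 4 and 5 stood above the other 3, and all lay below the hyperplastic islets. The transporter gene fell 5.88-fold (-2.56 ± 0.33 log2, adjusted p = 4.8e-05). Nkx6-1, a factor that maintains the beta cell state, read 10.39, 10.35 and 10.24 against 9.42, 9.17, 8.97, 9.68 and 9.3. It fell 2.02-fold (-1.01 ± 0.2 log2, adjusted p = 0.00361), again with tumour 4 highest of the tumours. Gipr, the receptor for the incretin GIP, read 9.67, 9.7 and 9.45 against 8.59, 8.98, 9.23, 8.77 and 8.96 (-0.7 ± 0.11, adjusted p = 0.000361). These 3 calls were kept when each array was left out in turn.

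Mafa, a factor of mature beta cells that activates insulin transcription, read 9.38, 9.45 and 8.94 against 9.09, 8.51, 7.91, 8.81 and 8.68. Tumour 1 lay above hyperplastic 3, and the fall (-0.66 ± 0.18, adjusted p = 0.031) was no longer called without hyperplastic 1 (0.145), hyperplastic 2 (0.167) or tumour 2 (0.0568). Ero1b, an oxidase of the endoplasmic reticulum rich in beta cells, fell by 0.56 ± 0.16 (adjusted p = 0.0355) and was not called without any 1 of hyperplastic 1 to 3, tumour 2 or tumour 3 (0.074 to 0.129). Ucn3, a peptide of mature beta cells, did not overlap between the groups but missed the threshold (-0.78 ± 0.25, adjusted p = 0.06), as did the channel subunit Kcnj11 (-0.45 ± 0.15, 0.0705). The list's count was 3 without hyperplastic 1, hyperplastic 2 or tumour 2.

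For Slc2a2, Nkx6-1 and Sst the tumours were not the lowest class of the series. Slc2a2 averaged 12.35 ± 0.18 (SD, n = 3) in normal islets and 11.37 ± 0.29 (n = 3) in angiogenic islets, while the metastasis-like primary tumours averaged 7.31 ± 0.46 (n = 5). Nkx6-1 averaged 9.94 ± 0.21 in angiogenic islets and 7.62 ± 0.5 in metastasis-like primaries. The Sst mean was 11.8 ± 0.37 in angiogenic islets, against 7.25 ± 0.23 in metastasis-like primaries. For Gipr the tumour mean of 8.91 ± 0.24 was the lowest, next to 9.05 ± 0.13 in angiogenic islets and 9.13 ± 0.1 in metastasis-like primaries, from which it differed by no more than its spread.

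Few genes of the secretory granule passed the test. Of 19 measured members, Stx1a rose (5.26% against 2.73% of all genes) and Chga and Syt13 fell (10.5% against 4.23%), and the median was -0.15. Chga, which encodes the granule protein chromogranin A and marks neuroendocrine cells, read 13.04, 13 and 13.01 against 12.46, 12.78, 12.68, 12.63 and 12.57 (-0.39 ± 0.12, adjusted p = 0.0425). The groups did not overlap, but Chga was not called without any 1 of 7 arrays, the exception being tumour 2. Syt13, a synaptotagmin, fell by 0.37 ± 0.09 (adjusted p = 0.0133; 0.0918 without hyperplastic 1). The syntaxin gene Stx1a rose by 0.23 ± 0.07 (adjusted p = 0.0417), a call lost without any 1 array other than tumour 4.

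Among 18 ion channel genes, 2 potassium channels fell (11.1% against 4.23% of all genes), and the list median was 0. Kcnk16, a background channel of islets, read 10.55, 10.53 and 10.23 against 8.23, 9.16, 9.19, 8.45 and 10.07. Tumour 5 was close to hyperplastic 3, and the fall of 1.41 ± 0.35 (adjusted p = 0.017) was not called without hyperplastic 1 (0.0825) or 2 (0.0766). Kcnma1, the calcium-activated BK channel, fell by 0.66 ± 0.13 (adjusted p = 0.00385); its other probe set differed by 0.49 in the opposite direction and was not called (0.367).

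Of 18 neuronal genes, 2 rose (11.1% against 2.73% of all genes), with a list median of 0.13. Elavl3, which encodes a neuronal RNA-binding protein, read 7.6, 7.86 and 7.91 in hyperplastic islets and 9.29, 8.83, 8.54, 9.05 and 9.31 in tumours. All tumours were higher, by 1.21 ± 0.14 on average (adjusted p = 9.23e-06). Its mean was 6.93 ± 0.05 in normal islets and 10.39 ± 0.08 in metastasis-like primaries. Uchl1, a ubiquitin hydrolase of neurons and endocrine cells, read 9.26, 9.56 and 9.19 against 9.87, 10.14, 9.99, 10.49 and 9.94 (0.74 ± 0.14, adjusted p = 0.00252). Both calls were kept when each array was left out.

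Of 16 pancreatic progenitor factors, 4 fell and 0 rose (25% against 4.23% of all genes), with a median of 0. When 1 array was left out, 1 to 4 fell, and 2 members rose without tumour 4. Gata6, a zinc-finger factor of early pancreas, read 7.84, 7.73 and 7.7 against 7.2, 6.94, 7.07, 7.08 and 7.1 (-0.68 ± 0.1, adjusted p = 0.000201). The tumours lay close together and wholly below the hyperplastic islets. Foxa2, Mnx1 and Neurog3, which all act in endocrine development, fell by 0.33 ± 0.08, 0.42 ± 0.11 and 0.35 ± 0.1 (adjusted p of 0.0158, 0.0244 and 0.0409). These 3 calls each depended on single arrays: Foxa2 was not called without hyperplastic 1 or 3, Mnx1 without hyperplastic 1, hyperplastic 2, tumour 1 or tumour 2, and Neurog3 without any hyperplastic array or tumours 2, 4 or 5. Of 14 imprinted and oncofetal genes, only the zinc-finger gene Plagl1 was called, and it rose (7.14% against 2.73% of all genes). Its difference was 0.88 ± 0.2 (adjusted p = 0.0106, and 0.0554 without hyperplastic 2).

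Immediate-early genes, which are transcribed within minutes of a stimulus, and heat shock genes fell for the most part. Of 27 measured members, 18 fell and 0 rose, 66.7% against 4.23% of all genes, with a median of -1.21 and no member above zero. Fos, a subunit of the transcription factor AP-1, read 10.89, 10.54 and 11.06 in hyperplastic islets and 7.11, 7.1, 6.35, 6.89 and 6.78 in tumours. More than 3 log2 separated the lowest hyperplastic islet from the highest tumour, and Fos fell 15.8-fold (-3.98 ± 0.2 log2, adjusted p = 2.08e-11). Its relative Fosb read 10.82, 10.49 and 11.19 against 7.45, 7.1, 7.06, 7.01 and 7.08 (-3.69 ± 0.17, adjusted p = 6.9e-12). Jun, the partner of Fos in AP-1, read 11.06, 10.69 and 11.29 against 8.34, 8.07, 8.21, 8.55 and 7.78 (-2.82 ± 0.16, adjusted p = 2.95e-10). The other AP-1 genes Junb (-1.21 ± 0.1) and Jund (-0.96 ± 0.12) fell by less.

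Other members with different roles fell too. Hspa1a, which encodes an inducible HSP70 chaperone, read 11.02, 10.94 and 11.25 against 7.88, 7.33, 7.84, 7.76 and 7.73. It fell 10.3-fold (-3.36 ± 0.2, adjusted p = 2.95e-10), and the co-chaperone genes Dnajb1 (-1.67 ± 0.15) and Hsph1 (-1.33 ± 0.24) and the small heat shock protein gene Hspb1 (-1.21 ± 0.15) fell too. Egr1, a zinc-finger factor, read 9.65, 9.45 and 9.81 against 7.49, 7.77, 7.42, 7.52 and 6.93 (-2.21 ± 0.14, adjusted p = 2.01e-09). Dusp1, a phosphatase that switches off MAP kinases, read 11.3, 11.08 and 11.68 against 8.96, 9.15, 8.43, 9.21 and 8.89 (-2.42 ± 0.26, adjusted p = 3.26e-06). Btg2, an antiproliferative gene, fell by 2.1 ± 0.13 (adjusted p = 4.97e-10), and the messenger-decay factor Zfp36 fell by 1.59 ± 0.14 (adjusted p = 1.57e-07).

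Members that did not pass the test were Fosl1, Fosl2, Egr2, Egr3, Ier3, Nr4a1, Nr4a2, Nr4a3 and Myc. Nr4a1, a nuclear receptor of the immediate-early class, read 9.29, 9.1 and 9.39 in hyperplastic islets and 8.12, 10.37, 8.43, 8.68 and 7.28 in tumours. Tumour 2 stood above every hyperplastic islet and the other 4 tumours below (-0.68 ± 0.41, adjusted p = 0.379). Myc differed by -0.6 ± 0.21 (adjusted p = 0.0954). The list's count of falls stayed between 17 and 19 in every alternative analysis that kept the same threshold, and 15 members fell by at least 1 log2.

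**Figure D3:**
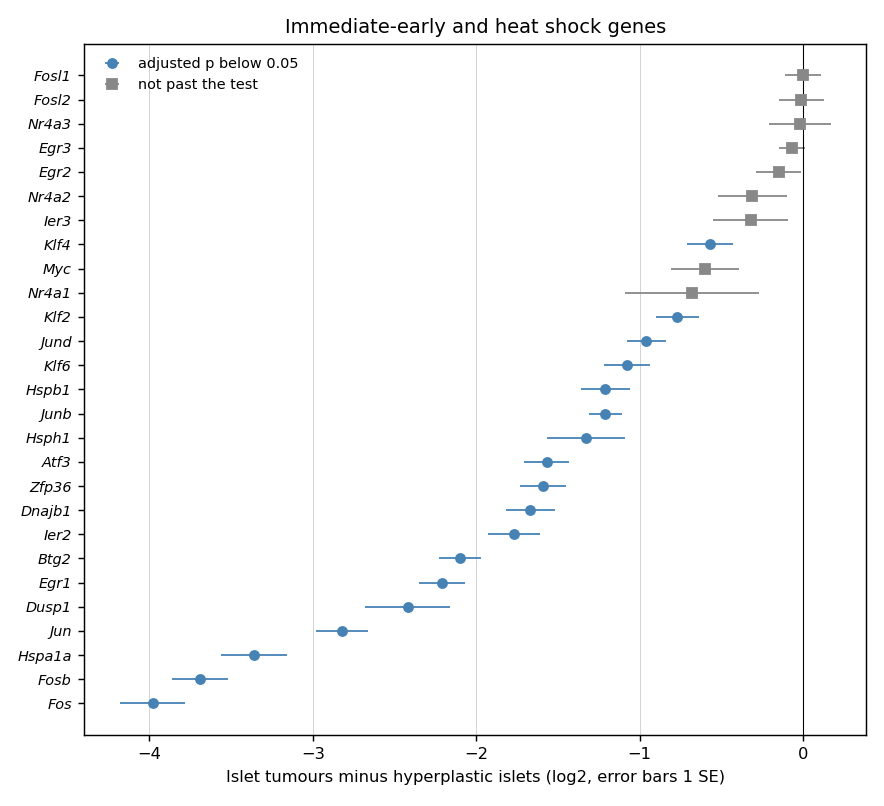
Difference in log2 level, 5 islet tumours minus 3 hyperplastic islets, for each of the 27 immediate-early and heat shock genes, with bars of 1 standard error. The 18 genes past the test run from -3.98 (Fos) to -0.57 (Klf4), and no member lies above zero.

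The 3 islet classes of the series read high for these genes and the tumour classes low. The list mean lay between 8.88 and 9.08 in the 3 hyperplastic islets and between 7.47 and 7.78 in the 5 tumours. Fos averaged 10.52 ± 0.23 in normal islets (SD, n = 3), 10.32 ± 0.26 in angiogenic islets (n = 3) and 7.57 ± 0.39 in metastasis-like primaries (n = 5). Hspa1a averaged 11.05 ± 0.39 and 10.65 ± 0.14 in normal and angiogenic islets and 7.97 ± 0.43 in metastasis-like primaries. The series' text names both dissection and isolation of tissue without saying which sample was obtained how, so the route of collection and the group cannot be told apart. This limit holds for every gene compared, including the unfolded protein response, p53 response and hypoxia lists below.

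Promoter sequences were read for the groups that fell together, because several of these genes are known to be controlled through the cAMP response element, the binding site of CREB and ATF factors. RefSeq promoters of GRCm38.p6, from 250 bases before to 50 bases after each annotated start, were searched on both strands for the full element TGACGTCA and for its short form TGACG, which lies within the full element. The motifs and the 4 promoters shown were chosen after promoter sequences had been looked at. The full element is shown in capitals in the promoters of Sst (chr16:23890795-23891094, minus strand), Btg2 (chr1:134079106-134079405, minus strand) and Ppp1r15a (chr7:45526219-45526518, minus strand), and the short forms in that of Fos (chr12:85473640-85473939, plus strand), all written 5′ to 3′ along the gene.
Sst: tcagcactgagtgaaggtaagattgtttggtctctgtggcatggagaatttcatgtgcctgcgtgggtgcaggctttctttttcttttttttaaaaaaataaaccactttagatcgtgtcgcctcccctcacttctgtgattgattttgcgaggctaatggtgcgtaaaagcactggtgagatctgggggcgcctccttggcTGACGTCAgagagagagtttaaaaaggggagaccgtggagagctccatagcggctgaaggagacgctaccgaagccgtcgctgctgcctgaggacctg
Btg2: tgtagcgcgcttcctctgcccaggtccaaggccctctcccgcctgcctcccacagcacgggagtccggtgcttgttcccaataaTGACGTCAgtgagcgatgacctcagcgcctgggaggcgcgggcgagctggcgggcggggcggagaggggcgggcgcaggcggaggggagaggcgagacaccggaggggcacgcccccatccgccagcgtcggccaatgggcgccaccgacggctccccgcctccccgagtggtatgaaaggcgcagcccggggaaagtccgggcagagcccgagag
Ppp1r15a: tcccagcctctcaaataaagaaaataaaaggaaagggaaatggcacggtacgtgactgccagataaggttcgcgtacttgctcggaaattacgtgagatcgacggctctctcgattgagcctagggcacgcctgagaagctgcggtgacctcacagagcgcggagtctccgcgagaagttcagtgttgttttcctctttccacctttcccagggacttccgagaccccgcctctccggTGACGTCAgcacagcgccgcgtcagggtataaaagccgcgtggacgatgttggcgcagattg
Fos: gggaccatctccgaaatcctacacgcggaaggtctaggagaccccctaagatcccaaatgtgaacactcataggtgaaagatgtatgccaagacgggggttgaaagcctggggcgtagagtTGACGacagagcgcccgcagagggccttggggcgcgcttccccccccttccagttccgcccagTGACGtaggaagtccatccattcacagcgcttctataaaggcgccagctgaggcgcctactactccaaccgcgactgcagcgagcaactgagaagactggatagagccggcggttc

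In Sst the element began 48 bases before the annotated start, in Btg2 166 bases and in Ppp1r15a 12 bases before it, and in Fos the first of 2 short forms began 129 bases before it. The full element occurred in 1.79% of all 32851 promoters. Among the immediate-early and heat shock genes that fell, 16 had a promoter in the table and 2 of these, Btg2 and Dusp1, held it, 12.5% against 2.03% of all genes with a promoter. The short form occurred in 10 of those 16 genes, 62.5% against 23% of all genes. It occurred as often among members that did not pass the test (4 of 6, 66.7%), so the share did not separate the 2 sets. Of the 4 hormone genes that fell, Sst held either motif and Gcg, Pyy and Ppy held neither. Of 7 unfolded protein response genes that fell and had a promoter, 6 held the short form (85.7%), against 5 of 13 members that did not pass the test (38.5%), and Ppp1r15a alone held the full element. These shares are a description of few genes, and no test was made of them.

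Genes of the unfolded protein response, which raises chaperones and slows translation when the endoplasmic reticulum is loaded with secretory protein, fell in part. Of 22 measured members, 8 fell and 0 rose (36.4% against 4.23%), with a median of -0.36. Ppp1r15a, the phosphatase subunit that restores translation, read 8.11, 7.82 and 8.15 against 6.61, 6.9, 6.45, 6.5 and 6.42 (-1.45 ± 0.13, adjusted p = 2.28e-07). All hyperplastic islets stood well above the highest tumour. Ppp1r15a averaged 7.87 ± 0.21 in normal and 7.53 ± 0.13 in angiogenic islets (SD, n = 3 each), and 6.67 ± 0.21 in metastasis-like primaries (n = 5). As for the immediate-early genes, the route of collection and the group cannot be told apart here. Dnajb9, a chaperone of the reticulum, read 10.69, 10.4 and 10.75 against 10.01, 9.59, 9.8, 10.22 and 9.86 (-0.72 ± 0.14, adjusted p = 0.00334). Manf, a secreted stress factor, fell by 0.49 ± 0.08 (adjusted p = 0.000355) and the translation-control factor Atf4 by 0.48 ± 0.1 (adjusted p = 0.00506). The main chaperone Hspa5 (BiP) fell by 0.43 ± 0.1 (adjusted p = 0.0115; 0.0672 without hyperplastic 1 and 0.0682 without hyperplastic 3).

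The stress gene Ddit3 (CHOP) and the factor Xbp1 did not pass the test (0.23 ± 0.12 and -0.14 ± 0.1). The list's mean on tumour 4, 10.36, lay among the hyperplastic values (10.35 to 10.45), while the other 4 tumours lay between 9.98 and 10.09. The count of falls was 4 without hyperplastic 1, 5 without hyperplastic 2 and 11 without tumour 4.

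Sterol synthesis genes had 5 falls among 16 measured members (31.2% against 4.23%), 0 rises and a median of -0.24. Insig1, a sterol sensor that holds back synthesis, read 10.59, 10.39 and 10.39 against 9.22, 9.62, 9.48, 9.79 and 9.14 (-1.01 ± 0.11, adjusted p = 7.12e-06). Msmo1, a sterol oxidase, read 10.31, 10.23 and 10.15 against 9.45, 9.65, 9.54, 9.54 and 9.37 (-0.71 ± 0.09, adjusted p = 2.11e-05). Both stayed below all hyperplastic islets in all 5 tumours and were called without any single array. Hmgcs1 fell by 0.49 ± 0.12 (0.119 without hyperplastic 1). Idi1 (-0.46 ± 0.12) and Fdft1 (-0.49 ± 0.15) were called less firmly: Idi1 was lost without hyperplastic 1, 2 or 3 or tumour 1 or 2, and Fdft1 without any 1 array but tumours 4 and 5. The count was 2 without hyperplastic 1 and 3 without hyperplastic 2, hyperplastic 3, tumour 1 or tumour 2.

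Few genes of the cell cycle passed the test. Of 34 measured members, 33 lay above zero with a median of 0.28. All tumours lay above all hyperplastic islets for 14 of the 34 members, against 6.86% of all genes, and all below for 0. Only Birc5, which encodes survivin, was called (2.94% against 2.73% of all genes called higher). Its rise of 0.5 ± 0.15 (adjusted p = 0.0497) was lost whichever single array was left out. Mki67, a marker of cycling cells, read 10.12, 10.02 and 10.24 in hyperplastic islets and 10.72, 10.7, 9.94, 10.67 and 11.02 in tumours. Tumour 3 lay below the hyperplastic islets and the other 4 above (0.48 ± 0.32, adjusted p = 0.431). Top2a, the topoisomerase of replicating cells, read 10.46, 10.31 and 10.6 against 10.89, 10.84, 10.73, 11.08 and 11.23. The groups did not overlap, yet the difference of 0.49 ± 0.31 missed the threshold (adjusted p = 0.412). The other Top2a probe set rose by 0.7 and missed it more narrowly (adjusted p = 0.0643 in the limma fit of all single-symbol probe sets). Normal islets spread widely for both genes (SD of 1.11 and 1.24, n = 3) and enter the common estimate of spread. In the fit of the 8 compared arrays alone, 5 of the 34 members were called higher, against 345 of all 19938 genes.

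Among 14 regulators of the G1 phase, both called members were D-type cyclins, and both fell (14.3% against 4.23% of all genes). Ccnd2, the main cyclin D of islets, read 11.35, 10.97 and 10.96 in hyperplastic islets and 8.6, 8.89, 8.86, 8.79 and 9.27 in tumours. Every tumour lay well below, and Ccnd2 fell 4.63-fold (-2.21 ± 0.18, adjusted p = 6.63e-08). Ccnd1 read 9.06, 8.97 and 8.77 against 8.13, 8.41, 8.42, 8.08 and 8.54 (-0.62 ± 0.11, adjusted p = 0.00188). Normal islets held 12.79 ± 0.07 for Ccnd2 and angiogenic islets 10.54 ± 0.31 (SD, n = 3 each). The inhibitor gene Cdkn2a did not pass the test (0.12 ± 0.15, adjusted p = 0.74).

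Of 13 measured members of a list set up for the p53 (Trp53) response, 3 fell and 0 rose (23.1% against 4.23% of all genes). The median was -0.13. Members can also respond to other signals, and p53 activity itself was not tested. Gadd45b, a stress-induced growth arrest gene, read 9.82, 9.93 and 9.94 against 8.22, 9.07, 9.06, 8.89 and 7.93 (-1.26 ± 0.23, adjusted p = 0.0019). Tumours 1 and 5 were lower than the other 3. Gadd45g read 10.59, 10.67 and 10.59 against 9.23, 9.37, 9.85, 9.57 and 9.89 (-1.04 ± 0.19, adjusted p = 0.00179). Both were called without any single array, whereas Trp53inp1 (-0.42 ± 0.12, adjusted p = 0.0325) was lost without hyperplastic 1, hyperplastic 3, tumour 1 or tumour 3. The feedback inhibitor Mdm2 differed by -0.06 ± 0.08 and did not pass the test.

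More of the macrophage markers rose than did not pass the test. Of 18 measured members, 10 rose and 0 fell (55.6% against 2.73%), with a median of 0.64. Their mean lay between 7.51 and 7.7 in hyperplastic islets and between 8.02 and 8.52 in tumours, with tumour 5 the highest tumour. The 3 angiogenic islets held 8.34, 8.62 and 8.05, so the higher level was not particular to the tumours. Cd68, a lysosomal protein of macrophages, read 8.43, 8.57 and 8.48 against 9.55, 9.4, 9.17, 9.61 and 10 (1.05 ± 0.17, adjusted p = 0.000467). The complement gene C1qc read 8.45, 8.45 and 8.12 against 9.48, 9.33, 9.13, 9.43 and 9.83 (1.1 ± 0.18, adjusted p = 0.000741). Tumours and hyperplastic islets did not overlap for either gene, nor for C1qb (1 ± 0.16), Mpeg1 (0.96 ± 0.18) or Fcer1g (0.85 ± 0.15).

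Adgre1, an adhesion receptor that defines mouse macrophages, read 6.91, 7 and 6.92 against 7.6, 7.49, 7.46, 7.7 and 8.23. The rise of 0.76 ± 0.21 (adjusted p = 0.0345) was not called without any 1 hyperplastic array (0.095 to 0.125) or tumour 5 (0.0756). The receptor for macrophage growth factor, Csf1r, did not overlap between the groups but missed the threshold (0.58 ± 0.2, adjusted p = 0.0879), and C1qa overlapped (0.19 ± 0.17, 0.608). The scavenger receptor Cd163 (0.11 ± 0.21) and Lyve1 (-0.07 ± 0.21) did not pass the test. Without hyperplastic 3 the count was 6, and with a fibroblast covariate it was also 6.

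The 15 largest rises included 6 genes described first here, which were put together after their values were seen. Clec4n, a C-type lectin receptor also called dectin-2, read 6.4, 6.36 and 6.53 against 8.57, 8.65, 7.97, 8.56 and 8.88 (2.09 ± 0.26, adjusted p = 2.6e-05). Hmox1, the haem-degrading oxygenase, read 7.79, 7.94 and 7.51 against 9.89, 10.04, 9.23, 9.62 and 9.84. It rose 3.94-fold (1.98 ± 0.2 log2, adjusted p = 2.32e-06), and all 5 tumours lay more than 1 log2 above the highest hyperplastic islet. Spic, a factor of iron-recycling macrophages, read 5.64, 5.53 and 5.23 against 7.2, 6.92, 6.06, 6.57 and 7.79 (1.44 ± 0.31, adjusted p = 0.00639). Ms4a4a (1.78 ± 0.26), the lipase gene Pla2g7 (1.63 ± 0.24) and Wfdc17 (1.38 ± 0.2) rose with adjusted p of 0.000161 to 0.000201. These 6 calls were kept without any single array. In angiogenic islets the means were 8.13 (Clec4n), 9.51 (Hmox1), 6.67 (Spic), 8.23 (Ms4a4a), 8.4 (Pla2g7) and 7.33 (Wfdc17). The tumour means, in the same order, were 8.53, 9.73, 6.91, 8.85, 8.84 and 7.92.

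The remaining large rises follow gene by gene. Clstn2, which encodes the synaptic protein calsyntenin 2, read 8, 7.97 and 8.06 in hyperplastic islets and 9.29, 9.58, 9.42, 9.67 and 9.3 in tumours. It rose by 1.44 ± 0.14 (adjusted p = 8.45e-07) with little spread in either group, and its mean was 8.38 ± 0.12 in angiogenic islets and 8.3 ± 0.24 in the metastasis-like primaries. Cacna1e, a voltage-gated calcium channel subunit, read 6.77, 6.66 and 6.75 against 7.51, 7.86, 8.63, 8.11 and 8.15 (1.32 ± 0.23, adjusted p = 0.00113). Edil3, an extracellular integrin ligand, rose by 1.3 ± 0.27 (adjusted p = 0.00422). Slc6a15, a transporter of neutral amino acids, read 5.77, 5.76 and 6.16 against 8.5, 7.25, 7.01, 8.55 and 6.77. Tumours 1 and 4 were highest, and the rise of 1.72 ± 0.45 (adjusted p = 0.0243) was lost without hyperplastic 1, hyperplastic 2 or tumour 1.

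The noncoding gene Phtf1os read 5.45, 5.45 and 5.44 in hyperplastic islets and 6.57, 6.86, 6.88, 6.68 and 7.01 in tumours (1.35 ± 0.14, adjusted p = 1.4e-06). Its means in normal (5.41) and angiogenic (5.55) islets were also near the hyperplastic level. The liver-secreted inhibitor gene Fetub rose by 1.35 ± 0.39 (adjusted p = 0.0375) with tumour 2 at 9.1 and tumour 3 at 6.55; it was lost without any hyperplastic array or tumours 2, 4 or 5.

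**Figure D4:**
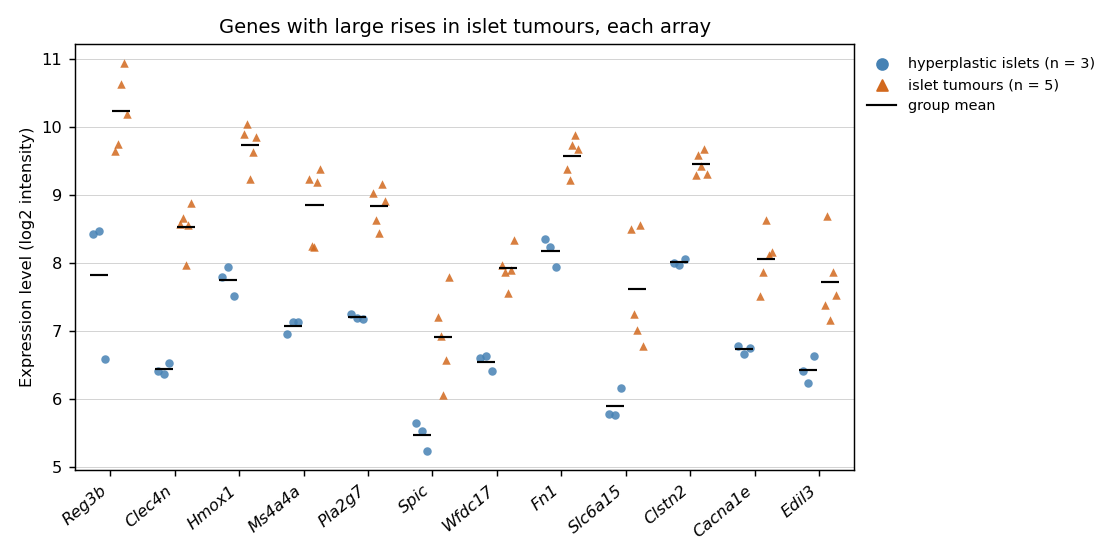
Level (log2 intensity) of 12 genes among the 15 largest rises on each array, with circles for the 3 hyperplastic islets, triangles for the 5 islet tumours and bars for group means. All 5 tumours lie above all 3 hyperplastic islets for each gene; Reg3b is low on 1 hyperplastic array (6.58).

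Several B lymphocyte markers fell in tumours, and the hyperplastic arrays differed widely among themselves. Of 14 measured members, 8 fell and 0 rose (57.1% against 4.23%), with a median of -0.98. The list mean was 8.04 on hyperplastic 1, 7.47 on hyperplastic 2 and 6.64 on hyperplastic 3, against 6.14 to 6.32 in tumours. Ms4a1, which encodes CD20, read 8.63, 7.69 and 6.22 against 5.31, 5.19, 5.24, 4.96 and 5.34 (-2.3 ± 0.6, adjusted p = 0.023). The B cell receptor gene Cd79a read 7.82, 6.99 and 6.08 against 5.17, 5.1, 5.18, 5.1 and 5.64 (-1.72 ± 0.39, adjusted p = 0.00961). Without hyperplastic 1 the count was 0, without hyperplastic 2 it was 1, without hyperplastic 3 it was 11, and without tumours 2 or 3 it was 5. Normal islets held 5.74 ± 0.23 for Ms4a1 and angiogenic islets 7.76 ± 2.31 (SD, n = 3 each).

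Glycam1 and Cxcl13 also fell and were highest on hyperplastic 1, then on hyperplastic 2. Glycam1, a mucin-like ligand of high endothelial venules, read 10.64, 9.52 and 7.45 against 6.03, 6.11, 6.1, 6.1 and 6.27 (-3.08 ± 0.84, adjusted p = 0.0303; 0.198 without hyperplastic 1, 0.123 without hyperplastic 2 and 0.0514 without tumour 1). The B cell chemokine Cxcl13 read 9.71, 9.18 and 6.45 against 6.06, 6.18, 6.14, 5.87 and 7.24. Tumour 5 lay above hyperplastic 3, and the fall (-2.15 ± 0.63, adjusted p = 0.0438) was called only with both hyperplastic 1 and 2 and tumours 1 to 4 present. The chemokine list had 3 falls and 1 rise among 19 members (15.8% against 4.23% lower, 5.26% against 2.73% higher), and 0 falls without hyperplastic 2. T lymphocyte markers had 0 of 13 members called and a median of -0.47, with 0 members above zero, and their mean was also highest on hyperplastic 1 (7.34).

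Antigen presentation genes had 5 falls among 13 members and 0 rises (38.5% against 4.23% of all genes), and all 5 belong to the class II pathway. Cd74, the class II invariant chain, read 10.4, 10.13 and 9.55 against 8.17, 7.91, 8.84, 8.87 and 9.14 (-1.44 ± 0.28, adjusted p = 0.00313), a call kept without any single array. H2-Eb1 fell by 1.14 ± 0.24, H2-Ab1 by 1.29 ± 0.32 and H2-Aa by 1.19 ± 0.32. Ciita, the transactivator of class II genes, fell by 0.7 ± 0.19. The count was 1 without hyperplastic 1, 2 without hyperplastic 2 and 3 without tumour 2, and 0 with the B lymphocyte mean as a covariate. That covariate was itself higher on the hyperplastic arrays (6.64 to 8.04) than on the tumours (6.14 to 6.32). It also lowered the count over all genes, from 1388 to 497, so it cannot single out these genes. Class II genes are expressed by B cells as well as macrophages, and the part of either cell type in these falls was not tested.

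**Figure D5:**
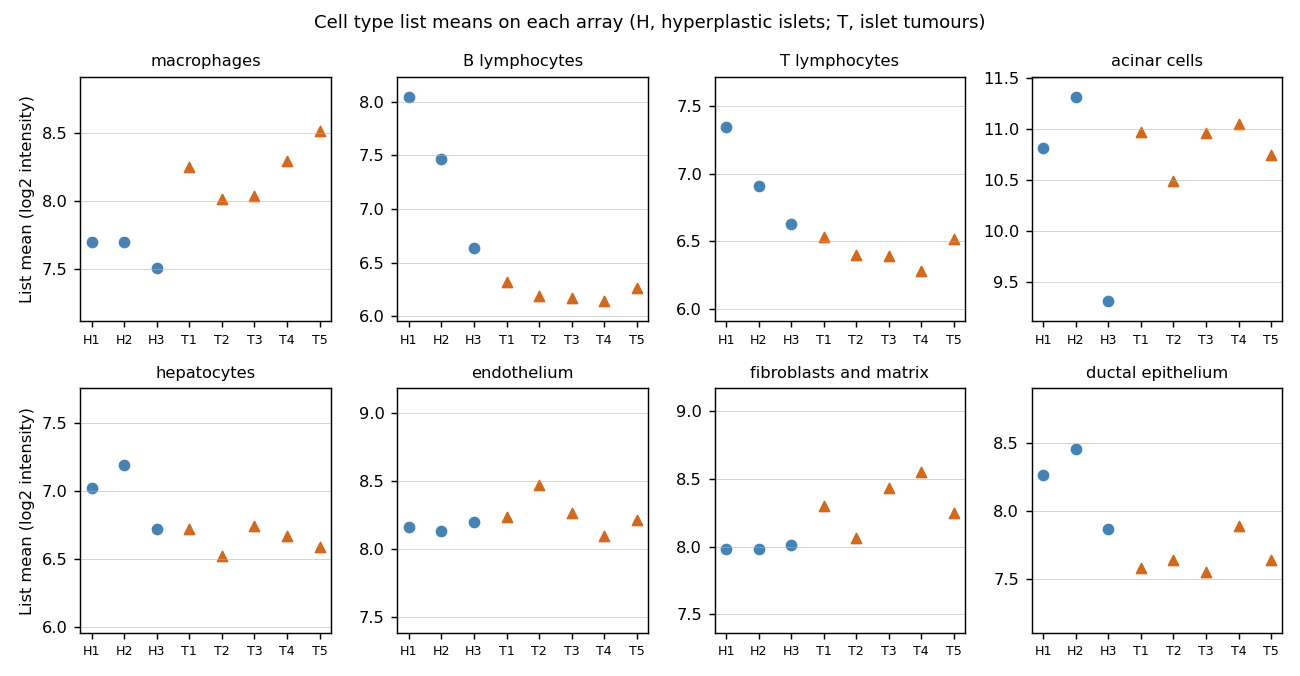
Mean log2 level of 8 cell type marker lists on each array, with H1 to H3 the hyperplastic islets and T1 to T5 the islet tumours; each panel has its own vertical range. Macrophage means are higher on all 5 tumour arrays (8.02 to 8.52 against 7.51 to 7.7), B lymphocyte means run from 6.64 to 8.04 over the hyperplastic arrays, and the acinar mean is low on H3 (9.31).

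Proteases and their inhibitors rose in part: 6 of 18 members were higher and 0 lower (33.3% against 2.73%), with a median of 0.23. Mmp2, the gelatinase A gene, read 7.29, 7.27 and 7.22 in hyperplastic islets and 8.21, 7.71, 7.99, 8.72 and 8.39 in tumours (0.94 ± 0.2, adjusted p = 0.00597). The hyperplastic arrays were tight and tumour 4 highest, and the call was kept without any single array. Its inhibitor Timp2 read 8.47, 7.97 and 8.2 against 9.12, 8.76, 9.12, 8.91 and 8.76 (0.72 ± 0.17, adjusted p = 0.0111; 0.0947 without hyperplastic 2). Mmp14, the membrane protease that activates Mmp2, rose by 0.58 ± 0.16, Timp1 by 0.68 ± 0.18 and the cathepsins Ctss and Ctsb by 0.74 ± 0.2 and 0.45 ± 0.13 (adjusted p of 0.0231 to 0.0361). Mmp9, the gelatinase B gene, did not pass the test (-0.24 ± 0.09, adjusted p = 0.0909).

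The protease count moved with single arrays and with the fibroblast covariate. It was 2 without any 1 hyperplastic array and 3 without tumour 5, and 0 with the fibroblast list mean as a covariate. That covariate also lowered the count over all genes, from 1388 to 897, and Mmp2 then missed the threshold narrowly (adjusted p = 0.0547). The fibroblast mean was 7.98 to 8.01 in hyperplastic islets and 8.06 to 8.55 in tumours, and tumour 4 was highest, as it was for Mmp2. The part of stroma in the protease rises was not tested.

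Fibroblast and matrix genes lay above zero for 19 of 21 members, with a median of 0.32, but only 2 were called (9.52% against 2.73% of all genes). Fn1, which encodes fibronectin, read 8.34, 8.23 and 7.94 against 9.37, 9.22, 9.73, 9.87 and 9.67 (1.4 ± 0.19, adjusted p = 0.000103). The proteoglycan gene Bgn read 8.76, 8.58 and 8.65 against 9.6, 9.57, 9.71, 9.81 and 9.44 (0.96 ± 0.21, adjusted p = 0.00745). Both stood higher on all tumours and were called without any single array. The collagen gene Col1a1 did not pass the test (0.67 ± 0.23, adjusted p = 0.0784). Angiogenic islets lay above the tumours for Fn1 (10.44 ± 0.19) and Bgn (10.59 ± 0.18; SD, n = 3 each).

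Few vessel genes passed the test. Of 18 endothelial markers only Cdh5, the endothelial cadherin, was called (5.56% against 2.73% of all genes). It rose by 0.4 ± 0.12 (adjusted p = 0.0419). It was lost without hyperplastic 1 or 2 or tumours 1, 2, 3 or 5. Pecam1 overlapped (9.02, 8.72 and 8.9 against 8.64, 9, 8.89, 8.69 and 8.99), and the VEGF receptor gene Kdr did not differ beyond its error (0 ± 0.16). Vegfa, which encodes the main vessel growth factor, read 10.9, 10.79 and 10.8 against 10.46, 11.01, 10.57, 10.42 and 10.61 (-0.22 ± 0.12, adjusted p = 0.322). Of the VEGF, angiopoietin and tip-cell list only the apelin receptor Aplnr was called among 18 members, again 5.56% against 2.73% of all genes. Its rise (0.44 ± 0.13, adjusted p = 0.0382) was lost without hyperplastic 1 or 2 or tumours 2 or 5.

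Of 14 pericyte and smooth muscle markers, 2 rose (14.3% against 2.73% of all genes). Rgs5, a pericyte regulator of G proteins, rose by 0.59 ± 0.15 (adjusted p = 0.0168) and the adhesion molecule Mcam by 0.41 ± 0.1 (adjusted p = 0.0164). Both were lost without hyperplastic 1 or 2. Of 13 basement membrane genes, 2 rose (15.4%). Lamb1 and Col4a2 rose by 0.4 ± 0.11 and 0.34 ± 0.1 (adjusted p of 0.026 and 0.0414). Both were lost without hyperplastic 1, hyperplastic 2, tumour 3 or tumour 5, Lamb1 also without hyperplastic 3 and Col4a2 also without tumour 2.

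Ductal and brush-border epithelial markers fell in part, 5 of 14 with 0 rises (35.7% against 4.23%) and a median of -0.2. The list was split around zero, with 7 members above and 7 below. All tumours lay below all hyperplastic islets for 3 members and above them for 2. Tspan8, an epithelial tetraspanin, read 8.52, 8.65 and 8.2 in hyperplastic islets and 5.61, 5.48, 5.27, 5.8 and 5.51 in tumours. It fell 7.59-fold (-2.92 ± 0.2, adjusted p = 5.59e-09), and its mean was 9.72 ± 0.26 in normal islets. Vil1, the actin bundler of microvilli, read 8.49, 8.06 and 7.93 against 6.14, 6.75, 6.28, 6.05 and 6.18 (-1.88 ± 0.18, adjusted p = 8.45e-07). The tight-junction gene Cldn7 fell by 0.72 ± 0.14 (adjusted p = 0.00294). These 3 did not overlap between the groups and were called without any single array.

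Krt19, the defining ductal keratin, read 8.15, 8.47 and 7.08 against 6.55, 6.53, 6.45, 7.31 and 6.33. Tumour 4 lay above hyperplastic 3, and the fall (-1.27 ± 0.36, adjusted p = 0.0343) was lost without hyperplastic 1 or 2 or tumours 1, 2, 3 or 5. Krt18 (-0.64 ± 0.19, adjusted p = 0.0406) was lost without any 1 array but tumour 4. The list's count was 3 without hyperplastic 1, hyperplastic 2, tumour 1 or tumour 3. Ugt2b34, a glucuronosyltransferase outside this list, was among the largest falls: it read 8.67, 8.48 and 8.35 against 5.48, 5.52, 5.59, 5.31 and 5.48 (-3.03 ± 0.15, adjusted p = 2.49e-11).

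Acinar markers had 0 of 21 members called. Their mean was 10.81 on hyperplastic 1, 11.31 on hyperplastic 2 and 9.31 on hyperplastic 3, against 10.49 to 11.05 in tumours, and Cpa1 (carboxypeptidase A1) followed the same order (12.85, 13.19 and 11.4 against 12.68 to 12.97). Exocrine RNA was thus present in both groups. Of 8 Reg lectins and Spink1, which are made by acinar cells under stress, 2 rose (25% against 2.73% of all genes). Reg3b read 8.42, 8.47 and 6.58 against 9.64, 9.75, 10.63, 10.93 and 10.19 (2.41 ± 0.54, adjusted p = 0.00821; 0.0734 without hyperplastic 3). Reg3a read 6.86, 7.27 and 5.6 against 7.66, 8.3, 8.82, 9.94 and 9.1 (2.19 ± 0.61, adjusted p = 0.0329), lost without hyperplastic 1, hyperplastic 3, tumour 4 or tumour 5. Hyperplastic 3 was the lowest array for both and for the acinar mean; with the acinar mean as a covariate both stayed called, and with the fibroblast mean as a covariate neither was called (0 of 8).

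Of 18 hepatocyte markers, 2 fell (11.1% against 4.23% of all genes). Ttr, which alpha cells also express, fell by 1 ± 0.14 (adjusted p = 0.00016) and the fatty acid carrier Fabp1 fell by 1.93 ± 0.27 (adjusted p = 0.000134). Fabp1 read 7, 6.78 and 5.98 against 4.82, 4.55, 4.53, 4.78 and 4.61. Albumin (Alb) overlapped, at 7.74, 8.54 and 6.97 against 7.8, 6.5, 6.04, 8.24 and 6.72. Neutrophil, red blood cell, glial and adipocyte lists had 0 members called.

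Signalling ligands and receptors changed gene by gene. Igf1, an insulin-like growth factor, read 7.29, 7.53 and 7.33 against 8.39, 8.06, 7.95, 8.32 and 8.39 (0.84 ± 0.15, adjusted p = 0.00139). Hbegf, a ligand of the EGF receptor, read 8.2, 8.24 and 8.21 against 7.66, 7.82, 7.55, 7.59 and 7.52 (-0.59 ± 0.08, adjusted p = 5.71e-05). Both groups were tight for Hbegf and did not overlap. Kit, Fgfr2 and Fgfr4 also rose and Fgf1 and Egf also fell, which made 4 rises and 3 falls of 29 growth factor genes; Kit, Fgf1 and Egf were each lost without 2 to 5 of the single arrays, hyperplastic 2 always among them. These are 13.8% against 2.73% of all genes for the rises and 10.3% against 4.23% for the falls. The count of rises was 1 without hyperplastic 1, hyperplastic 2 or tumour 1 and also 1 with the fibroblast covariate, and the count of falls ran from 1 to 4 when 1 array was left out. Tgfb1 read 8.08, 8.08 and 7.77 against 8.86, 8.9, 8.85, 8.67 and 8.63 (0.8 ± 0.12, adjusted p = 0.000268). The activin subunit Inhba rose by 0.4 ± 0.11 (lost without hyperplastic 1 or 2 or tumours 2 or 5), and the inhibin subunit Inha fell by 0.68 ± 0.15 (lost without hyperplastic 1).

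In the Wnt pathway, 2 of 21 members fell (9.52% against 4.23% of all genes), with a list median of 0.07. Sfrp5, a secreted Wnt antagonist, read 7.85, 7.84 and 7.71 against 6.27, 6.53, 6.64, 6.14 and 6.26 (-1.43 ± 0.16, adjusted p = 9.19e-06), after 9.19 ± 0.09 in normal islets (SD, n = 3). The islet ligand Wnt4 fell by 0.71 ± 0.13 (adjusted p = 0.00179), and its other probe set by 0.81. Of 18 Notch genes the ligand Jag1 rose (5.56% against 2.73% of all genes), by 0.57 ± 0.13 (adjusted p = 0.00906, and 0.062 without hyperplastic 2). The DNA damage kinase gene Chek2 (0.61 ± 0.15) and the Polycomb gene Suz12 (0.42 ± 0.1) rose with adjusted p of 0.0192 and 0.0183, and both were lost without hyperplastic 2 (0.129 and 0.13). The Bcl2 family had 0 of 14 members called.

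Central metabolism showed few changes. Glycolysis (0 of 16) and the respiratory chain (0 of 23) had no member called in either direction, with medians of 0.04 and 0.03. Of 19 hypoxia targets, 3 fell and 0 rose (15.8% against 4.23% of all genes), with a median of 0.02, and the count was 1 without any single hyperplastic array. Ddit4, an inhibitor of mTOR, read 9.24, 8.82 and 8.97 against 7.68, 7.63, 7.7, 8.16 and 7.74 (-1.23 ± 0.15, adjusted p = 1.43e-05). Bnip3 (-0.77 ± 0.2, lost without any 1 hyperplastic array) and Ankrd37 (-0.36 ± 0.11, lost without any 1 array but tumour 5) fell too. Of 17 fatty acid genes, 3 fell (17.6%) and 1 rose (5.88%). Elovl5, a fatty acid elongase, fell by 0.6 ± 0.12 (adjusted p = 0.00348). Srebf1 (-0.36 ± 0.08) and the desaturase Scd1 (-1.07 ± 0.28) fell but were lost without hyperplastic 1 or 2, and the rise of Fasn (0.34 ± 0.1) was lost without 6 of the 8 arrays. Of 25 citrate cycle genes, 2 fell (8%). Fh1 and Sdhd fell by 0.32 ± 0.08 and 0.36 ± 0.1, both lost without hyperplastic 2 and Sdhd also without hyperplastic 1, tumour 1 or tumour 2.

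The tumours also differed from each other. The 10 genes with the largest SD over the 5 tumours, predicted genes left aside, were Ppy, Kcnk9, Calb1, Kirrel3os, Cck, Calcr, Gad2, Nlrp5-ps, Fbxw24 and Kcnc2, given here as a description. Kcnk9, a background potassium channel, was at 9.44 in tumour 1 and 10.19 in tumour 4 and at 6.72 to 7.34 in the other 3, against 7.65 to 7.92 in hyperplastic islets. Calb1, a calcium-binding protein, was at 9.13 in tumour 3 and at 5.63 to 6.15 in the others. Cck, which encodes cholecystokinin, ran from 6.71 in tumour 5 to 10.16 in tumour 4. Gad2, the GABA-synthesising enzyme of islets and neurons, was at 9.05 in tumour 4 and at 6.19 to 7.39 in the others. Tumour 5 carried the highest mean of the interferon-stimulated list (8.49 against 7.13 to 7.29). Irf7, a factor of that response, read 9.52 there and 7.31 to 8.17 in the other tumours. Of the list's 16 members only Usp18 was called, and it fell (6.25% against 4.23% of all genes). Its fall (-0.66 ± 0.19, adjusted p = 0.0435) was lost without any 1 array but tumour 5. Without tumour 5, 3 members fell and the list median was -0.23, against 0.02 with it.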

How the data were processed

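Total RNA from 22 samples was purified with TRIzol, biotin-labelled by a whole-transcript protocol and hybridised to 1 Affymetrix Mouse Gene ST array per sample, per the labels. The authors processed the scans with aroma.affymetrix, per the series' design text, and deposited 1 table of log2 values per probe set, a unit read from their range (1.9 to 14.32). The sources used here name neither its version nor its settings. Arrays have no read depth, and their number limits the precision.

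Of 35511 probe sets, 23410 were listed in the platform's gene table. The 21789 with 1 gene symbol were kept, 1621 with several were left out, and 12101 were not listed. Where a gene had several (999 genes), its brightest on average over the 22 arrays stood for it. This left 19938 genes, with no filter on dim values.

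One limma fit (version 3.58.1, R 4.3.3) held all 22 arrays and a mean for each of the 6 groups, which thereby share each gene's estimate of spread. The contrast of the 5 islet tumours with the 3 hyperplastic islets was tested two-sided with limma's moderated statistic, and p-values were adjusted over all genes by Benjamini-Hochberg. Differences carry standard errors from this fit. The script was tested on simulated data. Arrays are numbered in accession order within a group, which pairs nothing.

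The members, the 47 gene lists (872 entries, 771 distinct genes measured) and the tests were chosen with earlier results of these data known. The named genes were the 15 largest rises and the 15 largest falls among called genes, up to 5 called members of each list with the smallest adjusted p, 12 set genes (Ins2, Iapp, Mki67, Top2a, Xist, Vegfa, Pecam1, Cpa1, Alb, Krt19, Cd79a and Adgre1), and the 10 genes with the largest SD among the tumours, 142 in all. The rule skips predicted genes, unnamed reading frames, chemosensory receptors and small RNAs, and 1 such gene stood among the rises. Listed members outside this rule, the Y-linked gene and Irf7 among them, were named after their values were seen.

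Alternatives were a block for the title code, the 8 arrays alone, quantile normalization, median centring, leaving out the dimmest 25% of genes, a trended and robust variance, array weights, the acinar, B lymphocyte or fibroblast list mean as a covariate, all single-symbol probe sets, calls of at least 1 log2, and leaving out each array in turn. The titles hold codes of unstated meaning. The title of hyperplastic 1 ends in I-93 and that of tumour 1 begins with I. These were read as 1 shared code, the only one between the 2 groups, which the labels do not state. Those arrays' deviations from their group means had a correlation of -0.28, and the main fit does not pair them. A single pair of arrays cannot show whether they share an animal or a batch. The check does not cover the other codes. Tumours 2 and 3 share prefix II, and tumours 4 and 5 prefix III. Normal, hyperplastic and angiogenic islets each hold the codes I-93, 2006 and 2007. In each of these classes the 2007 array had the lowest acinar mean (8.09, 9.31 and 9.83) and B lymphocyte mean (6.42, 6.64 and 6.22). The main fit treats all arrays as independent.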

Additional observations from a re-analysis of the deposited data

Results flagged for a closer look

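Of 189 values examined over the 5 tumours (142 named genes and 47 list means), 16 had 1 tumour far from the other 4, with a gap above 0.71 of the whole range. For values picked without regard to the spread of the tumours, chance gives about 1 in 20 such cases. Here 10 genes were picked for a large SD among the tumours, some genes also enter a list mean, and the values share arrays. That rate therefore does not apply to these 189 values.

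Tumour 4 was high for the keratins Krt18 (9.05 against 8.2 to 8.39) and Krt19 (7.31 against 6.33 to 6.55), for Ddit4 (8.16 against 7.63 to 7.74) and for the means of the ductal (7.89 against 7.55 to 7.64), unfolded protein response (10.36 against 9.98 to 10.09) and sterol synthesis lists (8.59 against 8.38 to 8.42). In each of these 6 cases tumour 4 was the tumour nearest to the hyperplastic islets. The same array was low for the Y-linked genes Eif2s3y (7.77) and Uty (7.34).

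Tumour 5 was high for the interferon-stimulated list mean (8.49 against 7.13 to 7.29), for Cxcl13 (7.24 against 5.87 to 6.18) and for Cd79a (5.64 against 5.1 to 5.18), and low for Jag1 (7.76 against 8.04 to 8.14). Tumour 3 was high for Calb1 (9.13 against 5.63 to 6.15) and for the noncoding gene Kirrel3os (8.95 against 5.68 to 5.89). Tumour 1 was high for Fosb (7.45 against 7.01 to 7.1) and for the red blood cell (6.91 against 6.37 to 6.44) and adipocyte list means (6.9 against 6.61 to 6.67). Tumour 2 was low for Hspa1a (7.33 against 7.73 to 7.88).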

How the results depend on the processing

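All 22-array, 8-array, scaling and covariate fits gave the 125 called named genes the same direction as reported, and 45 of them were tested and stayed past the threshold in all 19 alternatives other than the 1 log2 minimum. The filter on dim genes left 4 of the 125 untested, among them Fabp1. Against 1388 calls (544 higher, 844 lower), the 8 compared arrays alone gave 907 (345 higher, 562 lower), the B lymphocyte covariate 497 (176 and 321), the fibroblast covariate 897 (288 and 609) and the 1 log2 minimum 176 (38 and 138). Of the calls in those first 3 fits, 750, 456 and 779 were among the 1388 with the same direction. Leaving out 1 array gave 577 to 1548 calls, 224 to 578 of them higher and 353 to 1013 lower. Leaving out hyperplastic arrays also removes 1 of only 3 samples. Quantile normalization, median centring, the filter on dim genes, the trended variance, array weights, the acinar covariate and all probe sets gave 1366 to 1646 calls. The share of calls that were higher, 39.2%, became 45.1% with quantile normalization and 35.4% with median centring.

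A replicate block for the title code gave 944 calls, 288 higher and 656 lower, of which 574 were among the 1388. The block links hyperplastic islets and tumours only through 1 code read as shared. Whether that code marks a common animal or batch is not known, since the correlation of 1 pair of arrays cannot decide it. With it the macrophage count was 4 and the unfolded protein response count 3, neither Reg3a nor Reg3b was called, and the cell cycle median turned from 0.28 to -0.2. The cause of these differences was not tested.

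A total of 4067 genes had an unadjusted p below 0.05. The number of arrays, 3 and 5, limits what small differences can be called, and a gene that missed the threshold is not shown to be equal.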

Other observations

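Tumours 1 and 4 were the 2 highest tumours for several unrelated membrane genes. Kcnk9 read 9.44 and 10.19 on them, Kcnc2, a voltage-gated potassium channel, 8.22 and 8.9, Slc6a15 8.5 and 8.55, and Calcr, the calcitonin receptor, 7.18 and 8.81. On tumours 2, 3 and 5 these genes read 6.72 to 7.34, 5.96 to 7.81, 6.77 to 7.25 and 5.69 to 6.24. The genes were chosen after their values were seen, and no test was made of this grouping.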
